A study of Mus musculus with 6 samples.

Results

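The genes described here encode the proteins of elastic fibres and of the microfibrils that carry them: the fibulins (Fbln1, Fbln2, Fbln5, Efemp1 and Efemp2), elastin (Eln), the fibrillins (Fbn1 and Fbn2) and the microfibril-associated glycoproteins (Mfap2 and Mfap5). Members were all probe sets whose only gene symbol in the platform annotation was one of these 10 symbols. That gave 16 probe sets of 45037 tested, which read 8 of the 10 genes. Fbn1 and Efemp2 had no such probe set in the annotation used and were not analysed here. The samples were mouse cells that the labels call breast cancer stem cells, sorted on the surface proteins CD24 and CD29 into CD24+CD29+ cells (3 arrays) and CD24-CD29- cells (3 arrays). Per the labels' protocols, all cells grew in DMEM with 10% fetal bovine serum, and labelled cRNA made from total RNA was hybridised to Affymetrix Mouse430_2 arrays. The labels give no cell line, strain, genotype or animal age, and no treatment other than the sort. The 3 sets are described as independent biological samples, but whether each set was a culture or a sort of its own is not stated, so part of the spread behind the p-values may be technical.

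Elastic fibres let tissues stretch and recoil. Fibrillins assemble into microfibrils, tropoelastin is deposited on them with the help of fibulins, and lysyl oxidases crosslink it into elastin. Microfibrils also bind latent TGF-beta complexes and bone morphogenetic proteins. Fibroblasts and smooth muscle cells are the best known sources of these proteins, and the basement membranes and stroma around mammary ducts contain fibulins and fibrillins.

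CD24+CD29+ cells had higher RNA of Fbln5, Fbln1, Efemp1 and Fbn2, by up to 3.72-fold. They had lower RNA of Eln and Mfap2, by up to 1.43-fold, on the deposited scale. No difference was called for Mfap5 or for the main probe set of Fbln2. Over the 16 probe sets, 6 were higher, 6 were lower and 4 did not pass (limma, Benjamini-Hochberg adjusted p under 0.05 over all probe sets). Among all 45037 probe sets 29.2% were called higher and 34.8% lower, so the number of calls among these genes is near the background. The sizes differed more than the counts: 5 of the 16 were at least 2-fold higher, as were 2.29% of all probe sets, and none was at least 2-fold lower, against 1.15% of all. That share of rises varied with level, at 39 of 13494 probe sets with a mean of 5 to 6 and 246 of 4211 with a mean of 8 to 9. The 5 include more than 1 probe set of Fbln1, and the members were chosen with earlier results of these data known. The median difference was -0.06 on the log2 scale over the 16 probe sets and -0.05 over all probe sets. Values of the groups did not overlap for 12 of the 16, and for 68.2% of all.

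Directions are those on the deposited scale. RNAs that were added to the samples as poly-A controls read lower on the CD24+CD29+ arrays, with a median log2 difference of -1.17 over 24 probe sets. Scaling each array to these controls added 1.08 to every difference, so that all 16 member probe sets were called higher, including those of Eln and Mfap2. The other scalings tried (quantile normalization, cyclic loess and median centring) moved the median of all probe sets by at most 0.05 and reversed no call among the members, though quantile normalization and cyclic loess ended that of a dim Fbln2 probe set. Every difference given is a log2 value, that of CD24+CD29+ cells less that of CD24-CD29- cells, and its standard error (SE) is the fit's.

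**Figure D1:**
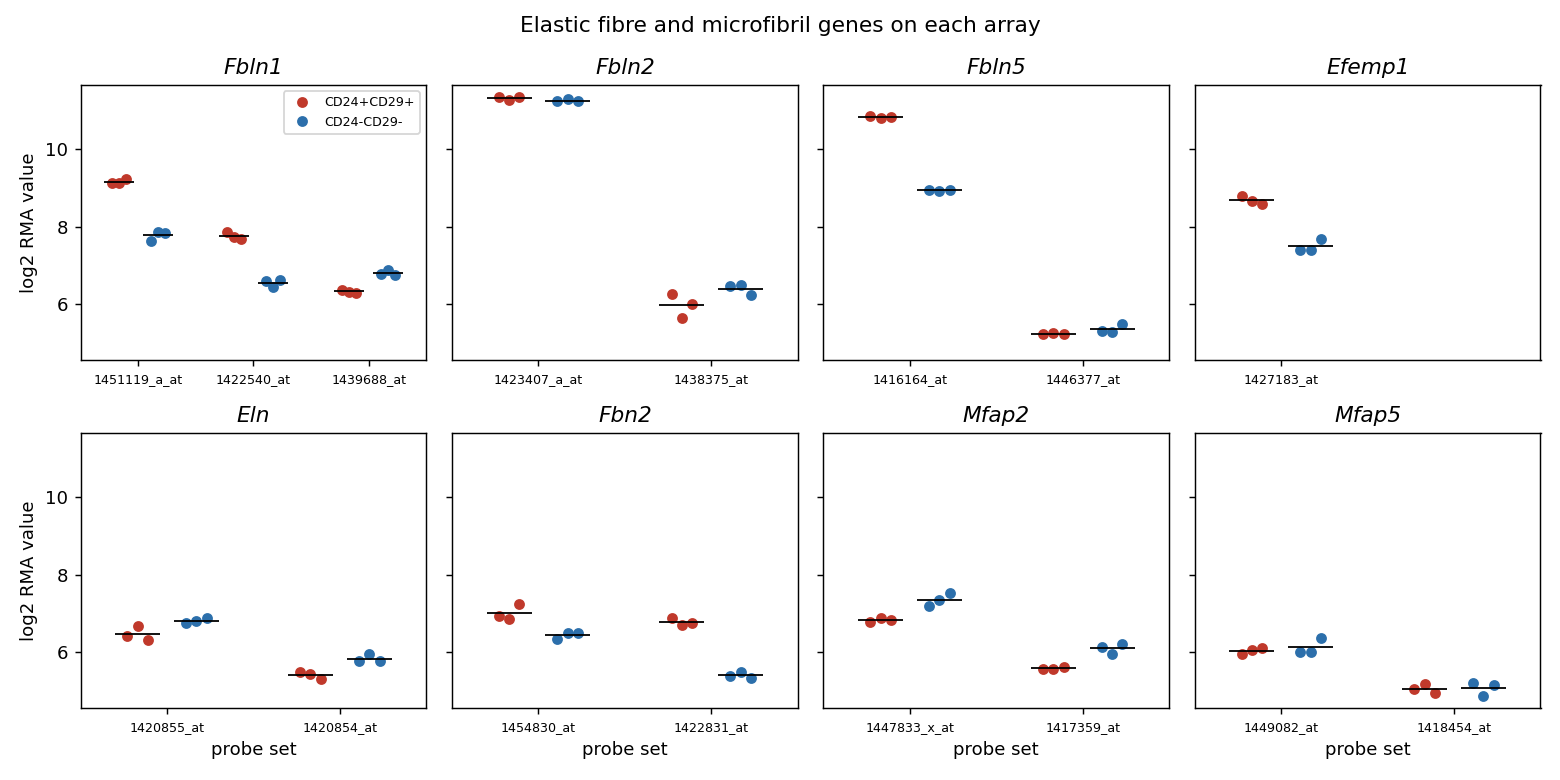
Log2 RMA values (y axis) of the 16 probe sets (x axis), 1 panel per gene, with CD24+CD29+ arrays in red left of CD24-CD29- arrays in blue; each point is 1 array and each line the mean of 3. The red points lie above the blue ones on both probe sets of Fbn2, on 2 of 3 of Fbln1, on the brighter one of Fbln5 and on Efemp1, and below them on both of Eln, both of Mfap2 and the dimmest ones of Fbln1 and Fbln5.

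The promoters of the higher members Fbln5, Fbln1 and Efemp1 are shown, with that of Mfap2 as a member that was lower. Whether any of these genes share regulation was not tested. RefSeq promoter windows of 300 bases around an annotated start, matched by symbol, were used for 7 of the 10 members. No window was matched for Eln or Mfap5. Fbn2, which also rose, was left out of this step and not for lack of a match, so its promoter was not examined. Where a gene had several windows, the first listed is printed. Capitals mark matches, on either strand, to any of 5 motifs: TATAAA (the TATA box), GGGCGG (the GC box bound by Sp1), TGANTCA (AP-1), CATTCC (TEAD factors) and CAGAC (Smad factors). No matches of different motifs overlapped in these windows.
Fbln5 promoter window, GRCm38.p6 chr12:101819070-101819369, minus strand: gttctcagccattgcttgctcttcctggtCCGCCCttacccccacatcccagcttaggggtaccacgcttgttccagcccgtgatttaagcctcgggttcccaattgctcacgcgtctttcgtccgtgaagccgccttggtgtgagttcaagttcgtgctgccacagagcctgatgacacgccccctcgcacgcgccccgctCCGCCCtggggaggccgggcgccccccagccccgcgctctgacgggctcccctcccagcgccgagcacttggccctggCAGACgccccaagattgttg
Fbln1 promoter window, GRCm38.p6 chr15:85205699-85205998, plus strand: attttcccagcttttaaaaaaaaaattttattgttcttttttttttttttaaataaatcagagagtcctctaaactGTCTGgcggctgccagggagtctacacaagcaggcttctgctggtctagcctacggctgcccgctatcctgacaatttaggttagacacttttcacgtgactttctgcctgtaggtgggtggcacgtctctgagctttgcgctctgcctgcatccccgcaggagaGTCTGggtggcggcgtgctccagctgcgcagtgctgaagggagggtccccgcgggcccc
Efemp1 promoter window, GRCm38.p6 chr11:28852955-28853254, plus strand: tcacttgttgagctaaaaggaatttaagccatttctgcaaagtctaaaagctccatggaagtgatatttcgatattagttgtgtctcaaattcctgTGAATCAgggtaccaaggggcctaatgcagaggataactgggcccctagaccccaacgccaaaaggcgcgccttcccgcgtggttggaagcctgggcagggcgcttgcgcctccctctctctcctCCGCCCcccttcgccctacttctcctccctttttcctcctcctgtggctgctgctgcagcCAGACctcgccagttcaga
Mfap2 promoter window, GRCm38.p6 chr4:141010431-141010730, plus strand: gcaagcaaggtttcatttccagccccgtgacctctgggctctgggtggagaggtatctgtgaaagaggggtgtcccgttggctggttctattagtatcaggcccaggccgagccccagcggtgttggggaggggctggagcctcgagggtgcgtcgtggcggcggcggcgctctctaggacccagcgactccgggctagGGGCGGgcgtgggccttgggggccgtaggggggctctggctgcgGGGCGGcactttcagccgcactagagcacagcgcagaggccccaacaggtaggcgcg

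In these windows the GC box was found 2 times for Fbln5, 2 times for Mfap2, 1 time for Efemp1 and not for Fbln1, whose other, overlapping window held 2. Of all 32851 promoter windows, 35.7% held at least 1. CAGAC was found 2 times for Fbln1, 1 time each for Fbln5 and Efemp1 and not in the printed Mfap2 window, against 49.6% of all windows with at least 1. TGANTCA was found 1 time, for Efemp1, and 7.81% of all windows held it. TATAAA and CATTCC, found in 13.6% and 14.7% of all windows, were in none of the 4. The other Fbln5 window held no GC box and CAGAC 2 times, and the other Mfap2 window held no GC box, CAGAC 1 time and CATTCC 1 time. A match is a description of the letters and not a bound site.

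Fbln5 encodes fibulin-5, which binds tropoelastin and cell-surface integrins and is needed for elastic fibre assembly in mice. Its main probe set, 1416164_at, read 10.86, 10.82 and 10.83 in CD24+CD29+ cells, against 8.95, 8.92 and 8.96 in CD24-CD29- cells. The groups lay far apart relative to the spread within each, with means of 10.84 ± 0.02 in CD24+CD29+ cells and 8.94 ± 0.03 in CD24-CD29- cells (SD, n = 3 each). The difference was 1.89 (SE 0.05, limma adjusted p = 6.7e-08), a 3.72-fold rise. This was the largest difference of the 16, and its 95% interval (1.79 to 2.00) did not overlap that of any other member. A dim second probe set, 1446377_at, read 5.22 to 5.24 in CD24+CD29+ cells and 5.28 to 5.48 in CD24-CD29- cells, and its difference of -0.13 did not pass (limma adjusted p = 0.11). It lay near the lower quartile of the arrays, 5.20 to 5.40. The annotation ties the main probe set to a RefSeq transcript of Fbln5 and the dim one to another sequence.

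Fbln1 encodes fibulin-1, a component of basement membranes and elastic fibres that binds fibronectin and laminins. On probe set 1451119_a_at it read 9.13, 9.13 and 9.24 in CD24+CD29+ cells, against 7.62, 7.87 and 7.84 in CD24-CD29- cells. The difference was 1.39 (SE 0.08, limma adjusted p = 1.7e-06), or 2.62-fold, with every CD24+CD29+ array above every CD24-CD29- array. A second probe set, 1422540_at, which is tied to a RefSeq transcript, went the same way: 7.85, 7.74 and 7.68 in CD24+CD29+ cells, against 6.59, 6.44 and 6.62 in CD24-CD29- cells (difference 1.20, SE 0.07). The intervals of these differences, 1.22 to 1.57 and 1.05 to 1.36, overlapped. The third, 1439688_at, was lower in CD24+CD29+ cells, at 6.32 ± 0.04 against 6.80 ± 0.07 in CD24-CD29- cells (SD, n = 3 each; difference -0.48, SE 0.06, limma adjusted p = 0.00011), and it turned to 0.60 after scaling to the poly-A controls. It is annotated to a sequence that is not among the gene's RefSeq transcripts. A RefSeq tie is also lacking for 1451119_a_at, for the only probe set of Efemp1, both of Eln and 1454830_at of Fbn2. Of the 10 member probe sets without such a tie, 3 rose and 5 fell. Of the 6 with it, 3 rose and 1 fell. Fbln1 has splice forms with different 3' ends, and which forms each probe set reads was not tested.

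Efemp1 encodes fibulin-3, a short fibulin found in the matrix of many tissues. Its only probe set, 1427183_at, read 8.78, 8.66 and 8.59 in CD24+CD29+ cells, against 7.39, 7.39 and 7.68 in CD24-CD29- cells. Groups did not overlap, and the difference of 1.19 (SE 0.09, limma adjusted p = 8.4e-06) was a 2.28-fold rise.

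Fbln2 encodes fibulin-2, which binds fibrillins, elastin and basement membrane proteins. Probe set 1423407_a_at read 11.34, 11.28 and 11.34 in CD24+CD29+ cells, against 11.24, 11.29 and 11.25 in CD24-CD29- cells. The values of the groups overlapped, and the difference of 0.06 did not pass, with a 95% interval of -0.05 to 0.17 (limma adjusted p = 0.32). A dimmer probe set, 1438375_at, read 6.25, 5.65 and 6.01 in CD24+CD29+ cells, against 6.47, 6.49 and 6.22 in CD24-CD29- cells. Its difference of -0.43 passed (SE 0.14, limma adjusted p = 0.027) although the groups overlapped, and the call was lost without CD24+CD29+ replicate 2 (-0.26), CD24+CD29+ replicate 3 (-0.45), CD24-CD29- replicate 1 (-0.39) or CD24-CD29- replicate 2 (-0.38). It was also lost under quantile normalization and cyclic loess, at -0.37 and -0.34, and it turned to 0.66 after scaling to the poly-A controls. On their main probe sets, 3 of the 4 fibulin genes measured rose and none fell, where 33.4% of all genes rose and 35.5% fell.

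Fbn2 encodes fibrillin-2, the fibrillin best known from developing tissue. Both of its probe sets rose. Probe set 1422831_at, tied to a RefSeq transcript, read 6.87, 6.71 and 6.76 in CD24+CD29+ cells, against 5.39, 5.48 and 5.34 in CD24-CD29- cells, a difference of 1.38 (SE 0.06, limma adjusted p = 7.2e-07) or 2.61-fold. The CD24-CD29- values were close to the lower quartile of the arrays. Whether background at that level altered the size of the difference was not tested. Probe set 1454830_at read 6.92, 6.86 and 7.24 in CD24+CD29+ cells, against 6.35, 6.48 and 6.49 in CD24-CD29- cells, a smaller difference of 0.56 (SE 0.10, limma adjusted p = 0.0011). The intervals of the probe sets, 1.24 to 1.53 and 0.34 to 0.79, did not overlap, so the size of the rise of Fbn2 depends on the probe set. The intervals of 1422831_at, of the brightest Fbln1 probe set and of Efemp1 (0.99 to 1.39) overlapped, and these rises were not ordered.

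Eln encodes tropoelastin, the soluble precursor of the elastic core. Probe set 1420855_at read 6.41, 6.67 and 6.30 in CD24+CD29+ cells, against 6.76, 6.79 and 6.89 in CD24-CD29- cells (difference -0.35, SE 0.09, limma adjusted p = 0.0098). Probe set 1420854_at read 5.49, 5.42 and 5.30 in CD24+CD29+ cells, against 5.77, 5.94 and 5.76 in CD24-CD29- cells (difference -0.42, SE 0.07, limma adjusted p = 0.0010). Both were lower with no overlap between the groups, by 1.28-fold and 1.34-fold, while they turned to 0.73 and 0.66 after scaling to the poly-A controls. Elastin RNA and the RNA of Fbln5, which helps to deposit the elastin protein, therefore moved in opposite directions as deposited. A test of the difference between these genes was not run.

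Mfap2 and Mfap5 encode MAGP-1 and MAGP-2, small glycoproteins bound to fibrillin microfibrils. Mfap2 was lower in CD24+CD29+ cells on both probe sets. On 1417359_at it read 5.55, 5.57 and 5.61 in CD24+CD29+ cells, against 6.14, 5.95 and 6.20 in CD24-CD29- cells (difference -0.52, SE 0.07, limma adjusted p = 0.00026). On 1447833_x_at, whose suffix marks probes that can cross-hybridise, it read 6.77, 6.88 and 6.84 in CD24+CD29+ cells, against 7.18, 7.35 and 7.52 in CD24-CD29- cells (difference -0.52, SE 0.08). The groups did not overlap on either, and both differences turned positive, to 0.56 and 0.57, after scaling to the poly-A controls. Mfap5 read 5.96, 6.04 and 6.11 in CD24+CD29+ cells on 1449082_at, against 6.01, 6.01 and 6.36 in CD24-CD29- cells, and on 1418454_at it read 4.94 to 5.17 in CD24+CD29+ cells and 4.87 to 5.20 in CD24-CD29- cells. Groups overlapped on both, and the differences of -0.09 and -0.02 did not pass, with 95% intervals of -0.31 to 0.13 and -0.24 to 0.19.

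**Figure D2:**
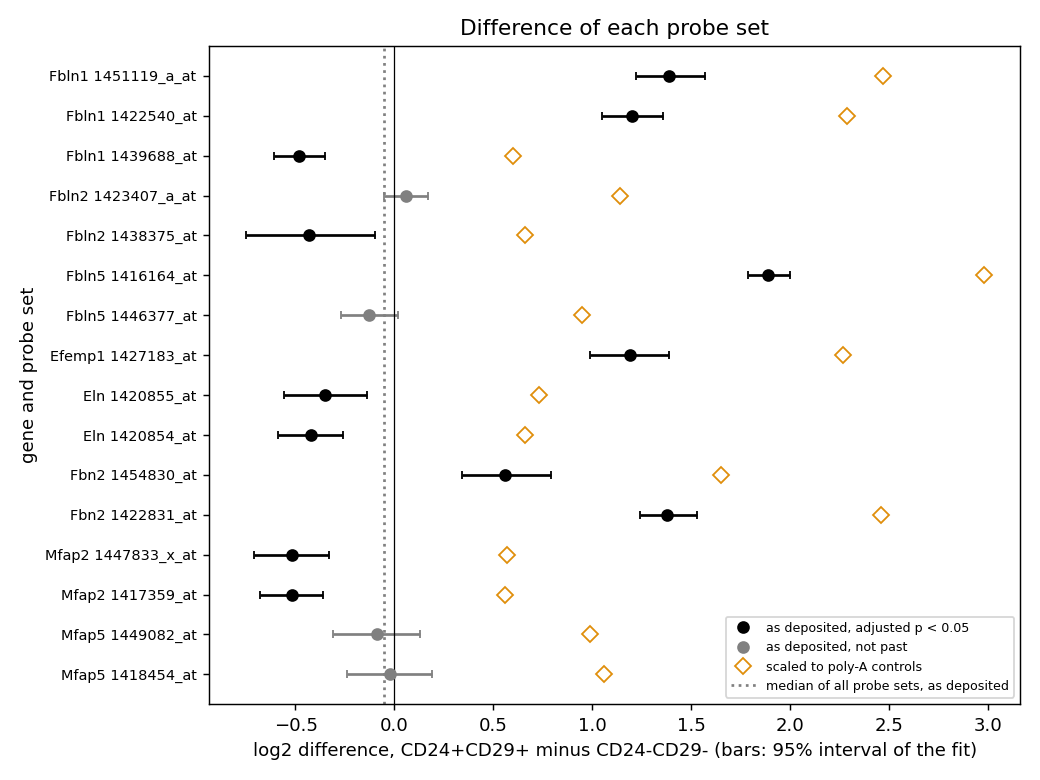
Log2 difference (x axis, CD24+CD29+ minus CD24-CD29-) of each of the 16 probe sets (y axis), with the 95% interval of the fit; black passes the threshold, grey does not, and open diamonds are the differences after scaling to the poly-A controls. Fbln5 1416164_at stands apart at 1.89, and all diamonds lie above 0.

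The direction of a probe set went with its level, here split at a mean of 7, a value chosen after the data were seen. Of the 6 member probe sets with a mean above 7, 4 rose and 1 fell, with a median of 1.20, and of the 10 with a mean of at most 7, 2 rose and 5 fell, with a median of -0.24. Over all probe sets the median difference also varied with level. The median difference was -0.17 over 13494 probe sets with a mean of 5 to 6, of which 6353 fell and 1588 rose, and 0.22 over 4211 with a mean of 8 to 9, of which 868 fell and 2289 rose. Above a mean of 12 the lean to rises was gone, with 235 falls and 223 rises from 12 to 13 and 91 falls and 49 rises from 13 to 14. Eln, Mfap2 and the dim probe sets of Fbln1 and Fbln2 lay below the median of their level by more than the SE of each, with differences of -0.52 to -0.35 where the medians were -0.17 to 0.17. The values carry no detection calls, so whether Mfap5, Mfap2 on 1417359_at or the dim probe sets of Fbln5 and Eln were above background was not tested. Array medians were 6.23 to 6.29.

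**Figure D3:**
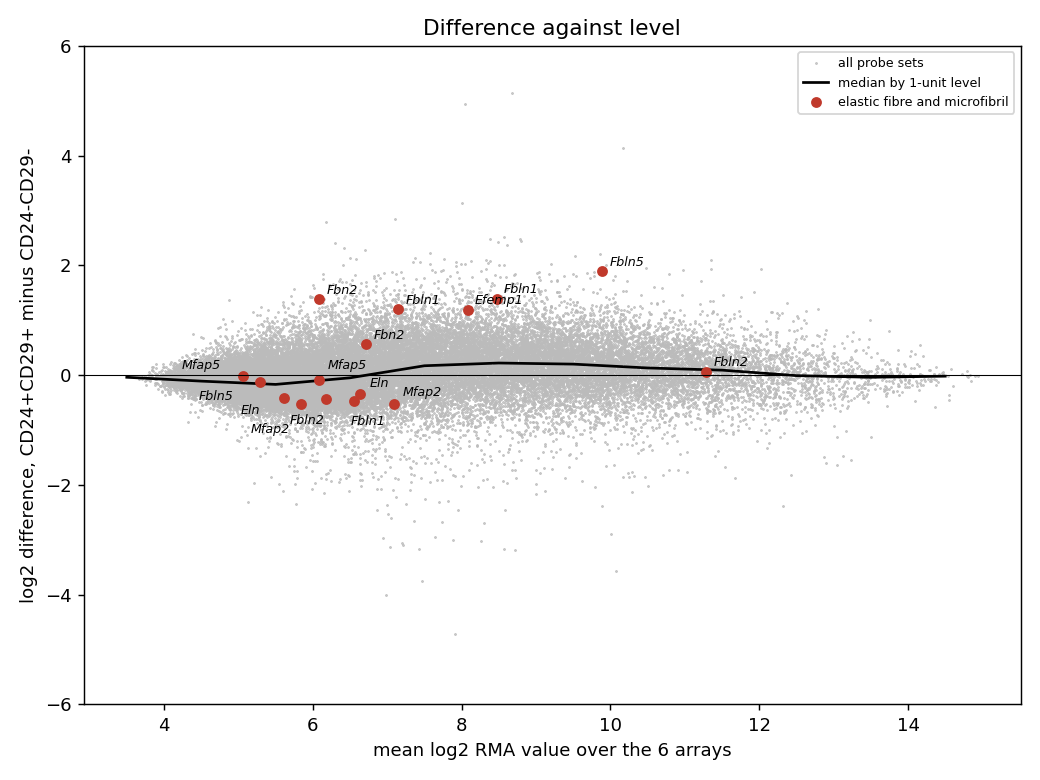
Log2 difference (y axis, CD24+CD29+ minus CD24-CD29-) against the mean log2 RMA value over the 6 arrays (x axis) for all 45037 probe sets in grey and the 16 member probe sets in red; the line joins the medians of 1-unit level intervals. The 6 probe sets called higher, of Fbln5, Fbln1, Efemp1 and Fbn2, lie above the line, and the line itself is at -0.17 between 5 and 6 and at 0.22 between 8 and 9.

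Taking each gene by its main probe set, which is its brightest one not ending in _x_at where it had such a one, 4 of the 8 member genes rose and 2 fell, with a median difference of 0.31. Over all 18193 genes 33.4% rose and 35.5% fell, with a median of -0.04. At least 2-fold rises were found for 3 of the 8, Fbln5, Fbln1 and Efemp1, and for 3.01% of all genes. No member gene was at least 2-fold lower, against 1.66% of all genes, and the groups did not overlap for 6 of the 8, against 73.6% of all genes. Averaging the probe sets of each gene also gave 4 rises and 2 falls, and the differences of Fbln5 and Fbln1 were smaller, at 0.88 and 0.70, since each then included a probe set that did not rise.

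Proteins that act on elastic fibres were mixed. The lists below were counted by main probe set, on which 33.4% of all genes rose and 35.5% fell. Of 18 genes of microfibril partners, 16 were measured, with 6 rises, 7 falls and 3 genes not past the threshold. Ltbp1, counted as a rise, had 1 of its 3 probe sets passing in the other direction. Emilin1, counted as a fall, had 1 of its 2 probe sets doing so. The median of the list was -0.11, or 0.97 after scaling to the poly-A controls. Adamtsl5, an ADAMTS-like protein that binds fibrillin, stood at 8.02 ± 0.12 in CD24+CD29+ cells and 6.47 ± 0.07 in CD24-CD29- cells (SD, n = 3 each; difference 1.56, SE 0.07, limma adjusted p = 8.0e-07). Ltbp4, a latent TGF-beta binding protein needed for elastic fibre formation in mice, was higher by 1.08 (SE 0.10). Mfap4, which binds elastin and microfibrils, was lower, at -0.81 (SE 0.09), as was Adamtsl2, another fibrillin-binding protein, at -0.59 (SE 0.08), and both were positive after that scaling, at 0.27 and 0.49.

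Enzymes that crosslink elastin and collagen were represented by 4 genes, of which 3 rose and 1 fell. Lox read 9.97, 10.02 and 10.09 in CD24+CD29+ cells, against 7.61, 7.52 and 7.52 in CD24-CD29- cells, the largest difference among the 4 (2.48, SE 0.06). Loxl1, the family member tied to elastin renewal in mice, rose by 0.51 (SE 0.08) at low level, 5.50 ± 0.16 in CD24+CD29+ cells against 4.99 ± 0.07 in CD24-CD29- cells (SD, n = 3 each), and Loxl4 rose by 0.56 (SE 0.12). Loxl3 was lower, at -0.52 (SE 0.05), or higher by 0.56 after scaling to the poly-A controls.

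Of 9 genes of proteases that can degrade elastin, 4 rose and 3 fell (2 not past the threshold; median 0.16). The macrophage metalloelastase gene Mmp12 was higher by 2.31 (SE 0.09) and the gelatinase gene Mmp2 by 1.46 (SE 0.05). Ctss, which encodes the elastin-degrading cathepsin S, read 6.38, 6.58 and 6.24 in CD24+CD29+ cells, against 9.01, 9.12 and 9.12 in CD24-CD29- cells (difference -2.68, SE 0.09), and it stayed lower under each scaling tried. The neutrophil elastase gene Elane was lower, at -0.66 (SE 0.07), at a low level, or higher by 0.42 after scaling to the poly-A controls.

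Genes of cell-surface receptors that can bind these proteins or activate TGF-beta, integrin subunits and Glb1, gave 7 rises and 2 falls of 9, with a median of 0.50, but 6 rises and a median of 0.29 after quantile normalization or cyclic loess. Glb1 was counted as a receptor, but which of its splice forms its only probe set reads was not tested. Itgb1, which encodes the CD29 protein used in the sort, was higher by 0.87 (SE 0.05), though 1 of its 6 probe sets went the other way, and Itgb6, a subunit of a TGF-beta activating integrin, by 0.56 (SE 0.11) with 1 of 2 probe sets passing in the other direction. Itgb5 and Itga5, which also rose, had 2 of 4 and 1 of 4 probe sets passing in the other direction. Itgb3 and Itga8 were lower, at -0.76 and -0.70 (SE 0.05 each), or higher by 0.33 and 0.39 after scaling to the poly-A controls. The other sort gene, Cd24a, was higher by 0.21 on its main probe set and by 0.20 on 1416034_at. It was lower, at -0.45, on its _x_at probe set. In CD24-CD29- cells these Cd24a probe sets had means of 12.79, 11.84 and 12.27, where array medians were 6.23 to 6.29. The main probe set of Itgb1 had a mean of 10.06 in CD24-CD29- cells, and its others had 4.41 to 9.94. RNA of both sort genes was thus read in the cells sorted as negative. The arrays did not measure surface protein.

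The TGF-beta ligand genes, whose latent products are stored on microfibrils, did not rise on their main probe sets as deposited. Tgfb2 was lower, at -0.60 (SE 0.05), and Tgfb3, at -0.05, did not pass, though all 3 genes were called lower after quantile normalization or cyclic loess. Tgfb1 was lower, at -0.37 (SE 0.05), with 1 of its 2 probe sets passing in the other direction. All of these were higher after scaling to the poly-A controls, by 0.48 to 1.04.

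**Figure D4:**
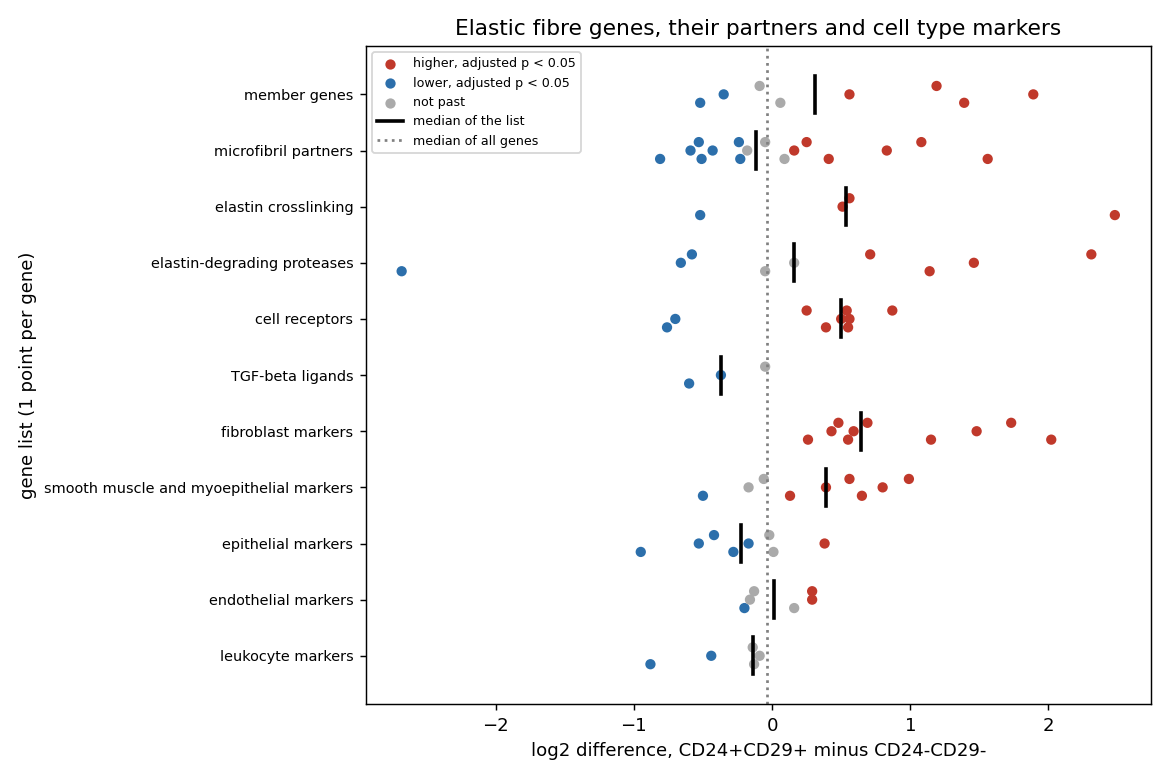
Log2 difference (x axis, CD24+CD29+ minus CD24-CD29-) of each gene by its main probe set, in rows for the 8 member genes, the lists of elastic fibre partners and the cell type marker lists (y axis); colours give the call, black bars the median of each list and the dotted line that of all genes. Fibroblast markers all lie above 0, epithelial markers have a median of -0.23, and member genes spread from -0.52 to 1.89.

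Fibroblast markers moved with the rises, and smooth muscle markers were mixed. All 10 fibroblast markers were higher in CD24+CD29+ cells, with a median of 0.64 (9 of the 10 after quantile normalization or cyclic loess), and their mean level was 9.38 to 9.45 in CD24+CD29+ arrays and 8.47 to 8.49 in CD24-CD29- arrays. Among all genes 33.4% rose and 35.5% fell. Rises were more frequent at the level of such markers, 2289 of 4211 probe sets with a mean of 8 to 9 and 1928 of 3555 from 9 to 10. Col1a2 was higher by 2.02 and Lum by 1.48, and the receptor genes Pdgfra and Pdgfrb by 0.55 and 0.59. Of 9 smooth muscle and myoepithelial markers 6 rose and 1 fell (5 and 1 after quantile normalization or cyclic loess), with mean levels of 8.70 to 8.72 in CD24+CD29+ arrays and 8.39 to 8.40 in CD24-CD29- arrays. The largest rises of that list were those of the basal and myoepithelial genes Krt14 (0.99), Trp63 (0.80) and Krt5 (0.65). Of its contractile and muscle genes, Myl9 and Cnn1 rose by 0.56 and 0.39, and Myh11 (-0.17) and Tagln (-0.06) did not pass. Des was lower, at -0.50 (0.58 after scaling to the poly-A controls), with 1 of its 2 probe sets passing in the other direction. Acta2 passed at 0.13, but was at -0.02 and not past the threshold after quantile normalization or cyclic loess. Markers named singly here and in the next paragraph were chosen after their values were seen. The part of these lists in the rises of Fbln5, Fbln1, Efemp1 and Fbn2 was not tested. In sorted bulk samples, fewer cells of a type and less RNA per cell cannot be told apart.

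Epithelial genes, the markers of the cell type from which breast cancers arise, read high in both groups. Epcam stood at 14.11 ± 0.02 in CD24+CD29+ cells and 14.13 ± 0.02 in CD24-CD29- cells (SD, n = 3 each), near the highest value of an array (14.91 to 14.95), and the 8 epithelial markers had mean levels of 11.52 to 11.58 in CD24+CD29+ arrays and 11.80 to 11.81 in CD24-CD29- arrays. Of these 1 rose and 5 fell as deposited, with a median of -0.23, or 0.86 after scaling to the poly-A controls. Endothelial markers lay at 5.21 to 5.32 in CD24+CD29+ arrays and 5.14 to 5.34 in CD24-CD29- arrays, near the lower quartile. Of these 6 markers, 2 rose and 1 fell. The 5 leukocyte markers measured lay at 5.54 to 5.64 in CD24+CD29+ arrays and 5.87 to 5.97 in CD24-CD29- arrays. None of them rose and 2 fell, Csf1r, at -0.88, and Cd3e, at -0.44 (0.20 and 0.64 after scaling to the poly-A controls). Ptprc was among those not past the threshold.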

How the data were processed

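Expression was measured on 6 Affymetrix Mouse430_2 arrays, 3 of CD24+CD29+ and 3 of CD24-CD29- cells. The values the authors deposited are on the log2 scale and, per the submitters' processing notes, were made with RMA (background subtraction, normalization between arrays, summary per probe set) and Partek. Their versions, settings and order, and a genome build, are not given there. Of 45101 probe sets 64 controls were left out. Genes were named from the platform annotation: 34945 probe sets had 1 symbol, 932 several and 9160 none. All 45037 were fitted without a filter on low values (limma 3.58.1, R 4.3.3; lmFit and eBayes, no trend, no block), and p-values were adjusted over all of them by Benjamini-Hochberg (threshold 0.05). Precision is limited by the number of arrays (median SE over probe sets 0.07). Arrays of a group correlated at 0.997 to 0.998 over probe sets and arrays of different groups at 0.974 to 0.979. Members were named with all their probe sets; of each partner list the 2 largest rises and 2 largest falls, and all crosslinking and TGF-beta genes, with values. The members and lists were chosen with earlier results of these data known. Same-numbered arrays' deviations correlated at 0.20, -0.04 and 0.05, so the numbers were not taken as pairs. The fit was tested on simulated arrays with independent noise, in which a small share of probe sets was raised by known amounts. These held no shift common to all probe sets, so the simulation does not bear on the scaling. Alternatives were other scalings, filters, variance models, gene summaries and leaving out each array.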

Additional observations from a re-analysis of the deposited data

How the results depend on the processing

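The 16 differences were recomputed under 14 alternatives each, where the probe set remained, which gave 218 values. Of these, 202 kept their side of the threshold and, where called, their direction. A call was lost by 6 and gained without a turn by 1, and 9 turned direction and were called after the turn. Among the 9, Fbln5 1446377_at and both probe sets of Mfap5 had not been called as deposited, so they gained a call too. All 9 turned after scaling to the poly-A controls, to 0.60 for Fbln1 1439688_at, 0.66 for Fbln2 1438375_at, 0.95 for Fbln5 1446377_at, 0.73 and 0.66 for Eln, 0.57 and 0.56 for Mfap2 and 0.99 and 1.06 for Mfap5; by construction it adds 1.08 to each. It called 16 member probe sets higher and 0 lower, 8 member genes higher and 0 lower, and 44677 of all probe sets, against 28786 as deposited. The 6 lost calls were all of Fbln2 1438375_at. Leaving out 1 array in turn gave 6 higher and 5 to 6 lower member probe sets, 4 and 2 member genes, and 25721 to 27571 of all probe sets. Leaving out the dimmest 40% lowered the count of all lower probe sets to 8382, against 15651 as deposited, among fewer probe sets tested, and kept 13 member probe sets, 6 higher and 5 lower. The replicate block gave 6 and 6 member probe sets and 28954 of all, and changed no call among the members; since the numbers were not shown to pair the samples, it is given here only. The number of arrays and the lack of detection calls limit what can be said of dim probe sets.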
